A study of Mus musculus with 24 samples.

Results

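The 10 genes described here make fatty acids and triglycerides in liver, or encode transcription factors that control that synthesis. They are Srebf1, Mlxipl, Thrsp, Me1, Acly, Acaca, Fasn, Elovl6, Scd1 and Agpat2. Members were all probe sets whose array annotation gave 1 of these symbols and no other, which came to 22 of the 45101 probe sets on the array and to 10 of the 18194 genes with such a probe set. Liver RNA, 200 ng per array, was measured on 24 Affymetrix arrays, 1 per male mouse, in 8 groups of 3 that cross 4 genotypes of TRβ, a receptor for thyroid hormone, with 1 injection of either the hormone T3 or PBS. All mice had first been made hypothyroid for 3 weeks with an iodine-poor diet and thyroid blockers in the drinking water, so the PBS groups are hypothyroid livers and the T3 groups are hypothyroid livers 6 h after 1 dose.

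The wild-type (WT), TRβ knockout (KO) and GS mice, all on a C57BL/6J background, were 8 to 9 weeks old and received 0.02% methimazole, 0.5% perchlorate and 0.3% saccharin, then T3 at 20 µg per 100 g body weight. GS carries the changes E125G and G126S in TRβ, which lie in the domain that binds DNA. The mice with the TRβ change Y147F were on a C57BL/6JCrl background, 10 to 11 weeks old, and received 0.05% methimazole and 1% perchlorate, then T3 at 200 ng per g, which is the same dose. They came in a later submission with no wild type of their own, so any difference between Y147F and the other genotypes cannot be told apart from a difference between submissions. The labels name no promoter or Cre driver for any genotype. Each title carries its own animal number (high or low, used as a covariate in 1 alternative), and no label says which animals were littermates.

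As background, fatty acid synthesis in the liver starts from citrate. ATP citrate lyase (Acly) splits citrate to acetyl-CoA, acetyl-CoA carboxylase (Acaca) makes malonyl-CoA, and fatty acid synthase (Fasn) builds palmitate with NADPH, part of which comes from malic enzyme (Me1). Elovl6 lengthens palmitate, Scd1 puts in a double bond, and Agpat2 adds an acyl chain to the glycerol backbone on the way to phosphatidic acid. Srebf1 encodes SREBP-1, which is driven by insulin and by the oxysterol receptor LXR, and Mlxipl encodes ChREBP, which responds to glucose metabolites. Thrsp, also called Spot 14, is a nuclear protein long used as a marker of thyroid hormone action in liver and is tied to lipogenesis. Liver TRβ binds DNA with RXR at paired copies of the motif AGGTCA and activates many of its targets when T3 is bound.

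RefSeq promoters on build GRCm38.p6 were available for 9 of the 10 genes, 13 promoters in all, and not for Scd1. The 250 bases before the annotated start were read in each. Thrsp is shown because its T3 response was the largest of the 10 in WT, Fasn because its response was large and its values spread widely, and Mlxipl because its response was lower in both KO and GS. Each is written 5′ to 3′ on the strand of the gene, with CCAAT (or its reverse complement ATTGG) and the E-box CACGTG in capitals. Thrsp lies at chr7:97417551-97417800 on the minus strand, Fasn at chr11:120824548-120824797 on the minus strand and Mlxipl at chr5:135089640-135089889 on the plus strand.
Thrsp: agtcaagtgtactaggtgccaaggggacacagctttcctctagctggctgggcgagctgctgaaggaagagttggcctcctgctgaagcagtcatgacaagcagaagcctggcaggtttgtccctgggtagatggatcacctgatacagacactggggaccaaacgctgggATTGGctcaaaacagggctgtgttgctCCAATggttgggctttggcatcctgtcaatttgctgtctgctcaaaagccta
Fasn: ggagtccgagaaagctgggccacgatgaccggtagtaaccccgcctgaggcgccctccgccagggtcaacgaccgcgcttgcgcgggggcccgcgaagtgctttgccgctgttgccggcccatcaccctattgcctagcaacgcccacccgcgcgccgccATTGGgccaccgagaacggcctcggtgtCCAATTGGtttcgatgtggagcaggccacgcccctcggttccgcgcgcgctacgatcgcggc
Mlxipl: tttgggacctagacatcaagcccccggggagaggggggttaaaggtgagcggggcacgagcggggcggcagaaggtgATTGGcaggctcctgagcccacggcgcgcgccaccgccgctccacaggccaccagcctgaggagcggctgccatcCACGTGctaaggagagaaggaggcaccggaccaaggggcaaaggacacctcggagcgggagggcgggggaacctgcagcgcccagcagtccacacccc
Motifs were searched on both strands. CCAAT was found in 6 of the 13 promoters, those of Mlxipl, Thrsp, Me1 and Fasn and both of Srebf1, and in 33.8% of the 32851 promoters of the table. In Fasn a CCAAT and an ATTGG overlap. CACGTG, the core of the element that ChREBP binds, was found in Mlxipl alone and in 6.02% of all promoters. AGGTCA was found in Elovl6 and Acly and in 14% of all. The direct repeat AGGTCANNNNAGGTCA, which contains AGGTCA, was in 0 of the 13 and in 0.0152% of all and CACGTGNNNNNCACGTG, which contains CACGTG, in no promoter of the table. These are matches of letters in these 250 bases only.

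T3 raised 5 of the 10 genes in WT liver (Thrsp, Agpat2, Me1, Mlxipl and Srebf1) and 6 in Y147F liver (the same 5 and Fasn), and changed none in KO or GS liver. A gene was called at an adjusted p under 0.05 in limma, a linear model fitted to all 14160 genes tested, with each gene read by its brightest probe set. In WT 10.6% of all genes were called and 5.72% were called higher, and in Y147F 11.6% and 5.52%. In KO 0.177% and in GS 0.148% were called, so a count of 0 among 10 there is near the background. By unadjusted p under 0.05, 10.4% of all genes in KO and 7.01% in GS passed. On their brightest probe sets, 0 of the 10 members passed in either. Other probe sets were not counted here, and Me1 has another with a larger difference in KO. The median log2 difference of the 10 genes was 0.78 in WT, 0.08 in KO, -0.21 in GS and 0.78 in Y147F, beside medians over all genes between -0.03 and 0.00. The T3 arrays lay above the PBS arrays without overlap for 6 of the 10 in both WT and Y147F, where 12.5% and 12% of all genes did. Acly, Acaca, Scd1 and Elovl6 were called in none of the 16 comparisons.

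**Figure D1:**
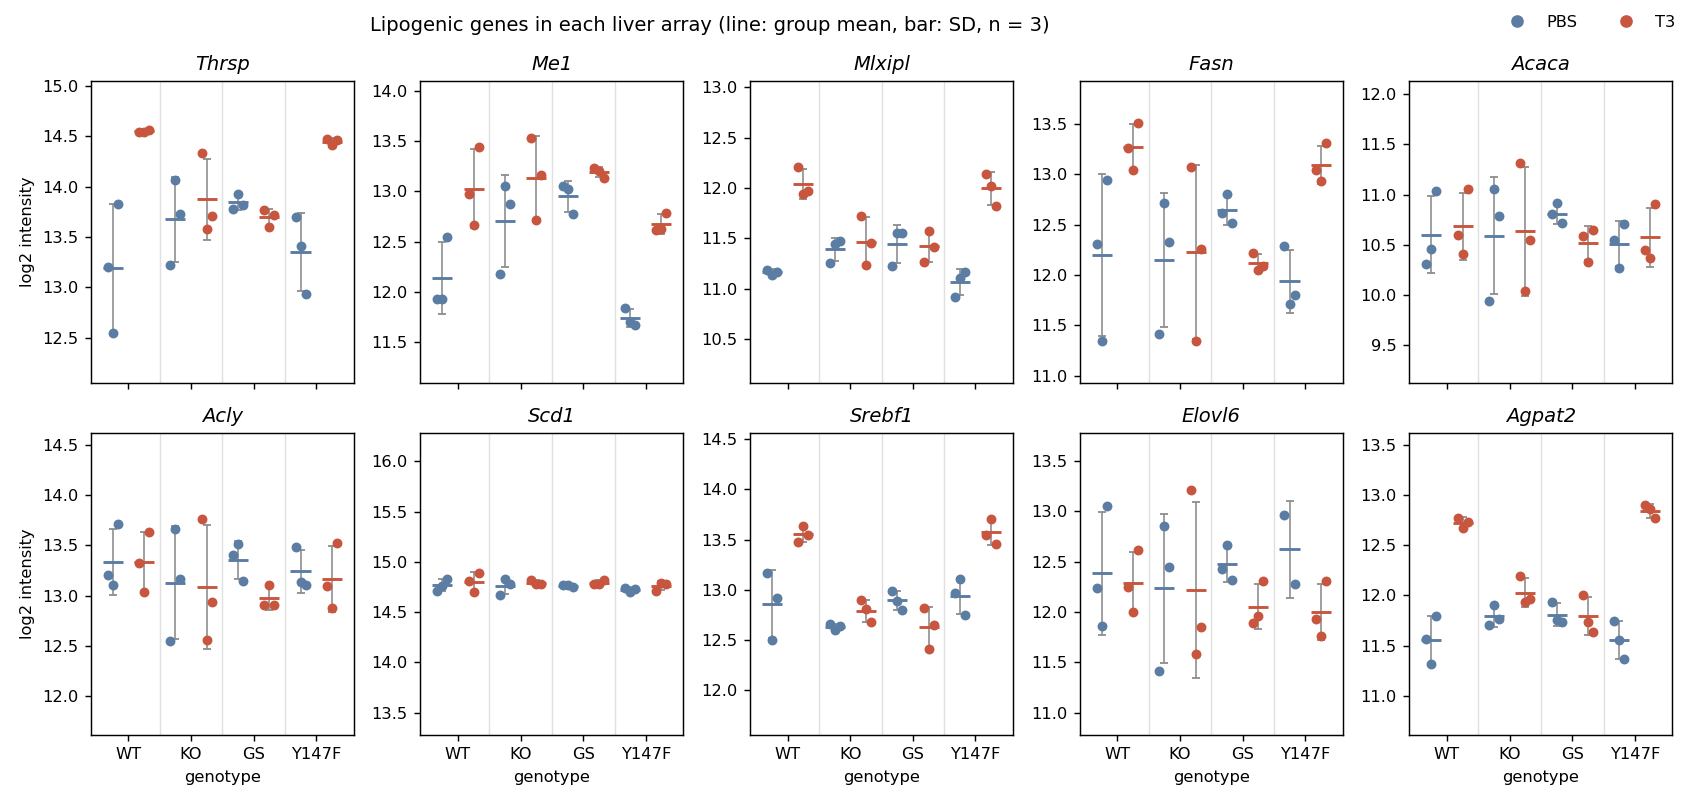
Log2 intensity (vertical axis) of each of the 10 genes on every array, by genotype, with PBS in blue and T3 in red; lines are group means and bars are SD (n = 3, and n = 2 for Elovl6 in Y147F PBS). In WT and Y147F, Thrsp, Mlxipl, Fasn, Srebf1, Me1 and Agpat2 lie higher with T3 than with PBS without overlap, while Scd1 stays between 14.67 and 14.89 on all 24 arrays.

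**Figure D2:**
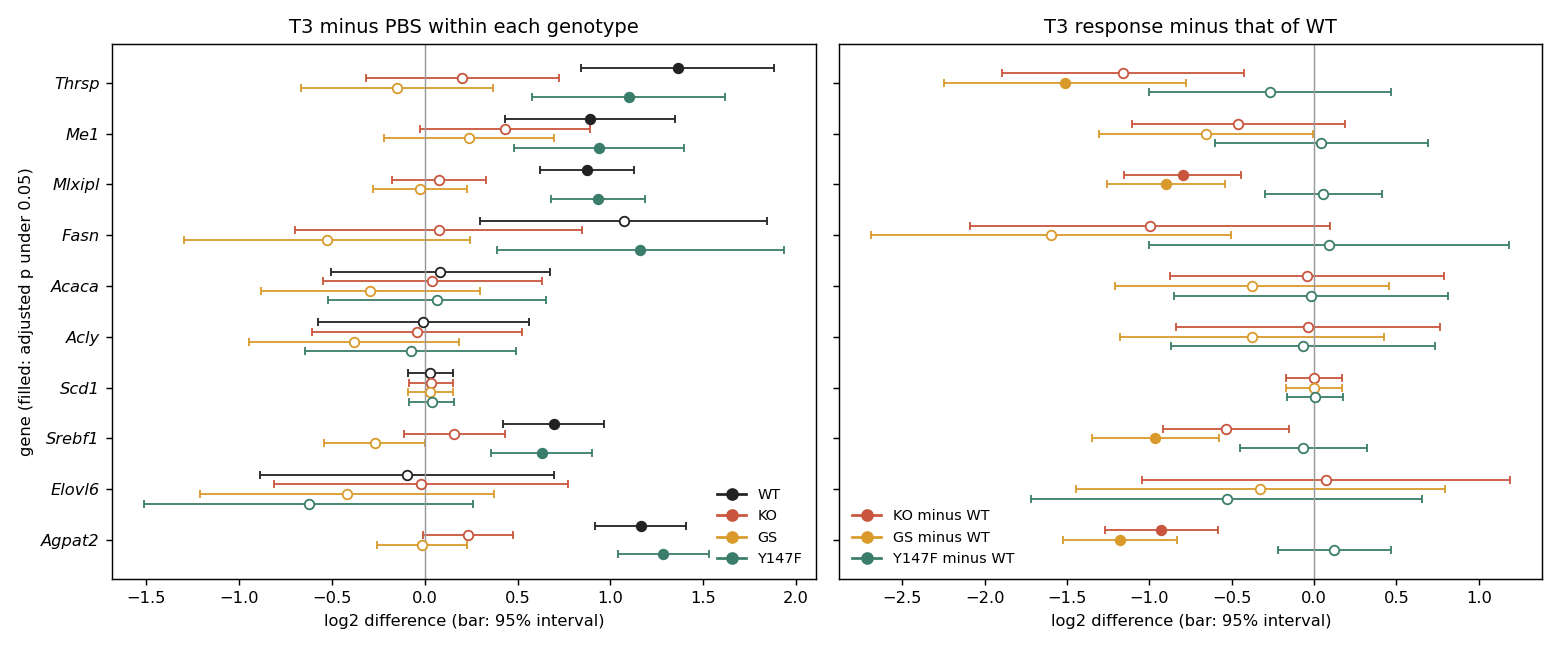
Log2 difference with its 95% interval for each gene: T3 minus PBS in each genotype (left), and the T3 response minus that of WT (right); filled points have an adjusted p under 0.05. Agpat2, Mlxipl, Thrsp, Srebf1 and Me1 are filled for WT and Y147F on the left, and Agpat2 and Mlxipl are filled for both KO and GS on the right.

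Mlxipl and Srebf1, which encode the transcription factors ChREBP and SREBP-1, both rose with T3 in WT and Y147F. Mlxipl read 11.19, 11.13 and 11.17 on the WT PBS arrays and 12.21, 11.94 and 11.97 on the WT T3 arrays, and 10.92, 11.10 and 11.17 against 12.14, 12.02 and 11.82 in Y147F. The T3 arrays of both genotypes lay above all other 18 arrays. The rise was 0.87 ± 0.12 (SE) on the log2 scale in WT, or 1.83-fold (adjusted p = 3.14e-05), and 0.93 ± 0.12 in Y147F (adjusted p = 2.00e-05). In KO, Mlxipl read 11.26, 11.44 and 11.47 with PBS and 11.72, 11.23 and 11.45 with T3, a difference of 0.08 with a 95% interval from -0.18 to 0.33. In GS it read 11.23, 11.55 and 11.55 with PBS and 11.26, 11.58 and 11.42 with T3, a difference of -0.03 with an interval from -0.28 to 0.23. The groups overlapped in both, and both intervals end below the estimate in WT.

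Srebf1 read 13.16, 12.50 and 12.92 in WT PBS and 13.48, 13.63 and 13.55 in WT T3, and 12.97, 13.11 and 12.75 against 13.54, 13.71 and 13.46 in Y147F. The rise was 0.69 ± 0.13 in WT, or 1.62-fold (adjusted p = 9.88e-04), and 0.63 ± 0.13 in Y147F (adjusted p = 0.00263). In KO the arrays read 12.66, 12.60 and 12.64 with PBS and 12.90, 12.81 and 12.68 with T3, which do not overlap, for a difference of 0.16 ± 0.13 (adjusted p = 0.746). In GS they read 12.99, 12.89 and 12.80 with PBS and 12.82, 12.41 and 12.65 with T3, a difference of -0.27 ± 0.13 (adjusted p = 0.721). The probe set does not tell the SREBP-1a from the SREBP-1c transcript here, since the annotation gives the gene alone.

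Thrsp had the largest rise of the 10 genes in WT. Its brightest probe set read 13.20, 12.54 and 13.82 in WT PBS and 14.55, 14.55 and 14.56 in WT T3, a rise of 1.36 ± 0.25 or 2.57-fold (adjusted p = 7.42e-04). In Y147F it read 13.70, 13.41 and 12.94 with PBS and 14.47, 14.41 and 14.46 with T3, a rise of 1.10 ± 0.25 (adjusted p = 0.00545). The spread was wide with PBS (SD 0.64 in WT) and very narrow with T3 (SD 0.0068), at a level near the highest value of any array, 15.21. In KO Thrsp read 13.23, 14.07 and 13.73 with PBS and 14.34, 13.58 and 13.71 with T3, and in GS 13.78, 13.93 and 13.82 against 13.77, 13.60 and 13.72. The KO groups overlapped, while in GS every T3 array was below every PBS array, by a mean of -0.15 ± 0.25 (adjusted p = 0.966). The means of all 4 KO and GS groups lay between those of WT PBS and WT T3.

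Both other probe sets of Thrsp gave larger T3 responses. On 1422973_a_at the difference was 2.04 ± 0.37 in WT and 1.82 ± 0.37 in Y147F, and on 1444166_at, which lies in a lower part of the array's range (6.94 to 9.15), it was 1.70 ± 0.24 and 1.45 ± 0.24. On 1444166_at WT read 7.14, 7.38 and 7.37 with PBS and 8.88, 8.98 and 9.15 with T3. The difference was 0.32 ± 0.37 and -0.08 ± 0.24 in KO on these probe sets and -0.19 ± 0.37 and -0.19 ± 0.24 in GS. All 3 probe sets thus rose in WT and Y147F and passed in neither KO nor GS.

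Me1, which yields cytosolic NADPH, rose with T3 in WT and Y147F and had high PBS values in GS. It read 11.93, 11.93 and 12.55 in WT PBS and 12.98, 12.66 and 13.44 in WT T3, a rise of 0.89 ± 0.22 or 1.86-fold (adjusted p = 0.00976). In Y147F it read 11.85, 11.70 and 11.68 against 12.62, 12.62 and 12.79, a rise of 0.94 ± 0.22 (adjusted p = 0.00695). In KO it read 12.18, 13.06 and 12.88 with PBS and 13.54, 12.72 and 13.16 with T3, a difference of 0.43 ± 0.22 (adjusted p = 0.526). In GS it read 13.06, 13.03 and 12.78 with PBS and 13.23, 13.21 and 13.13 with T3, a difference of 0.24 ± 0.22 (adjusted p = 0.9) in which the groups do not overlap. The call in WT is lost without WT PBS replicate 1 (0.79, adjusted p = 0.0555), WT PBS replicate 2 (0.79, adjusted p = 0.0542) or WT T3 replicate 3 (0.69, adjusted p = 0.0764). The probe set 1416632_at gave a larger rise, 1.46 ± 0.25 in WT (adjusted p = 3.22e-04) and 1.36 ± 0.25 in Y147F (adjusted p = 8.10e-04), with 0.60 ± 0.25 in KO and 0.42 ± 0.25 in GS.

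The order of the Me1 group means differed from that of the other T3-raised genes. From low to high it ran Y147F PBS 11.74, WT PBS 12.14, Y147F T3 12.68, KO PBS 12.71, GS PBS 12.95, WT T3 13.03, KO T3 13.14 and GS T3 13.19. From Y147F T3 upward each group overlapped the next. Me1 in GS PBS was 0.82 ± 0.22 above WT PBS (adjusted p = 0.046), the only gene of the 10 called between PBS groups, where 2.94% of all genes were called for GS against WT and 1.97% were higher. This call rests on the settings: it was lost in 12 of 16 alternatives, without WT PBS replicate 1 (0.71, adjusted p = 0.173) or 2 (0.71, adjusted p = 0.19) and without any 1 of the GS PBS arrays (0.77 to 0.91, adjusted p of 0.0744 to 0.155) among them. The probe set 1416632_at gave 0.72 (adjusted p = 0.154). Me1 in KO PBS was 0.57 ± 0.22 above WT PBS (adjusted p = 0.137), and 0.83 without KO PBS replicate 1 (adjusted p = 0.0258).

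Among the enzymes that build and modify the fatty acid chain, Fasn alone rose, in Y147F. It read 12.29, 11.72 and 11.80 in Y147F PBS and 13.05, 12.94 and 13.31 in Y147F T3, a rise of 1.16 ± 0.37 or 2.24-fold (adjusted p = 0.0458). In WT it read 12.31, 11.35 and 12.94 with PBS and 13.26, 13.04 and 13.51 with T3. Every WT T3 array was above every WT PBS array, and the difference was 1.07 ± 0.37 or 2.10-fold (adjusted p = 0.0714). Both values sit at the threshold. The call in Y147F was lost in 9 of 14 alternatives, with adjusted p of 0.0757 to 0.133 when 1 of 5 Y147F arrays was left out (all but PBS replicate 1). Without WT PBS replicate 3, the highest of that group, WT gave 1.44 (adjusted p = 0.0195). The response in Y147F minus that in WT was 0.09 ± 0.52, with an interval from -1.0011 to 1.1810. This interval leaves room for a response in Y147F that is much smaller than in WT, or larger by as much as either response. A loss as large as either response lies just outside it.

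Fasn in KO read 11.42, 12.71 and 12.33 with PBS and 13.08, 11.35 and 12.26 with T3, a difference of 0.08 ± 0.37. In GS it read 12.62, 12.80 and 12.52 with PBS and 12.22, 12.05 and 12.09 with T3, with every T3 array below every PBS array. The mean difference in GS was -0.52 ± 0.37 (adjusted p = 0.859). The SE is shared by all genotypes, while the SD of Fasn was 0.15 and 0.09 in the GS groups and 0.67 and 0.87 in the KO groups. A fit to the GS arrays alone gave the same difference with an SE of 0.092 and an adjusted p of 0.192.

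Acly, Acaca and Elovl6 did not pass in any genotype. Acly ranged from 13.10 to 13.71 in WT PBS and from 13.03 to 13.64 in WT T3, a difference of -0.01 with a 95% interval from -0.57 to 0.56. Acaca ranged from 10.31 to 11.03 and from 10.40 to 11.05, a difference of 0.08 with an interval from -0.50 to 0.67. Elovl6 ranged from 11.86 to 13.06 and from 12.00 to 12.62, a difference of -0.09 with an interval from -0.89 to 0.70. The intervals of Acly and Acaca in WT end below the estimate for Fasn in WT, and all 3 intervals leave room for a rise of 0.56.

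In Y147F, Elovl6 read 12.96 and 12.28 on the 2 PBS arrays with a value and 11.93, 11.77 and 12.30 with T3, a difference of -0.62 ± 0.42 (adjusted p = 0.404). The PBS replicate 2 cell was left out because it could be a spreadsheet day number, and the fit drops it. Read as a number it gives -0.55 (adjusted p = 0.408). The probe set 1417403_at, which has all 24 values, gave -0.58 ± 0.44 (adjusted p = 0.473).

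In GS, T3 arrays lay below PBS arrays without overlap for 5 of the 10 genes (Thrsp, Fasn, Acaca, Acly and Elovl6), where 5.8% of all genes did so, and above them for Me1 and Scd1, where 7.31% did. None of these was called. Acly read 13.40, 13.52 and 13.14 with PBS and 12.90, 13.10 and 12.91 with T3, and the difference was -0.38 ± 0.27 (adjusted p = 0.859). Acaca read 10.81, 10.91 and 10.71 against 10.58, 10.33 and 10.65, a difference of -0.29 ± 0.28 (adjusted p = 0.905). Elovl6 read 12.43, 12.67 and 12.32 against 11.89, 11.96 and 12.30, a difference of -0.42 ± 0.38 (adjusted p = 0.893). All 5 counts come from the same 6 animals and are not separate observations. Of these 5, Fasn, Acaca, Acly and Elovl6 also deviated together within groups, as described further on, while Thrsp went with Fasn and Elovl6 more closely than with Acly (r = 0.75) or Acaca (r = 0.64). In KO, 2 genes were higher with T3 without overlap (Srebf1 and Agpat2), where 7.01% of all genes were.

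Scd1 read 14.67 to 14.89 on all 24 arrays on its brightest probe set, 1415964_at, in the 99.9th percentile or above of every array and close to the highest value of any array. Its T3 response was 0.03 in WT with a 95% interval from -0.09 to 0.15, and from 0.03 to 0.04 in the other genotypes. The dimmer probe set 1415965_at ranged from 12.83 to 13.76 and gave -0.03 ± 0.18 in WT, 0.08 ± 0.18 in KO, 0.05 ± 0.18 in GS and 0.13 ± 0.18 in Y147F. The within-group SD of 1415964_at was 0.054, in the 2.15th percentile of all genes tested. Whether a signal so near the top of the range limits this reading was not tested.

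**Figure D3:**
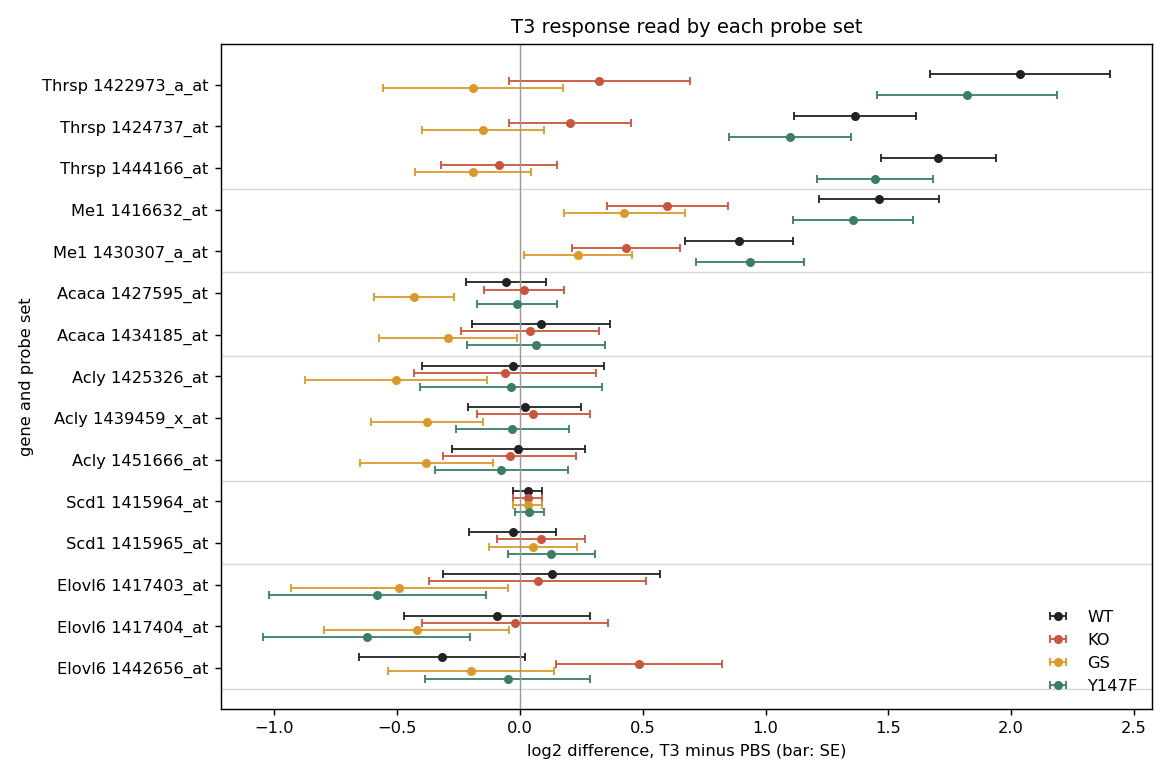
T3 minus PBS on the log2 scale (bars are SE) for each probe set that passed the filter of the 6 genes with several, by genotype. The 3 probe sets of Thrsp give 1.36 to 2.04 in WT, and those of Acly, Acaca and Scd1 lie near 0 in WT, KO and Y147F.

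Agpat2, which acylates lysophosphatidic acid, had the smallest adjusted p of the 10 genes in both WT and Y147F. It read 11.57, 11.32 and 11.79 in WT PBS and 12.77, 12.67 and 12.73 in WT T3, a rise of 1.16 ± 0.12 or 2.24-fold (adjusted p = 5.22e-07). In Y147F it read 11.75, 11.55 and 11.37 against 12.90, 12.86 and 12.77, a rise of 1.29 ± 0.12 or 2.44-fold (adjusted p = 1.46e-07). In KO it read 11.71, 11.91 and 11.77 against 12.19, 11.93 and 11.97. The KO groups do not overlap, but the difference of 0.24 ± 0.12 was not called (adjusted p = 0.512). In GS it read 11.94, 11.76 and 11.73 against 12.01, 11.74 and 11.64, a difference of -0.02 ± 0.12 with groups that overlap.

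The T3 response itself was compared between genotypes. Against WT it was lower in KO for 2 of the 10 genes, Agpat2 and Mlxipl, where 2.06% of all genes had a lower response. It was lower in GS for 4, Agpat2, Mlxipl, Srebf1 and Thrsp, where 1.96% of all genes had. For Agpat2 the KO response differed from that of WT by -0.93 ± 0.16 (adjusted p = 0.00199) and the GS response by -1.18 ± 0.16 (adjusted p = 1.59e-04). For Mlxipl the KO response differed by -0.80 ± 0.17 (adjusted p = 0.00958) and the GS response by -0.90 ± 0.17 (adjusted p = 0.00358). Both comparisons share the 6 WT arrays.

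For Srebf1 the GS response differed by -0.96 ± 0.18 (adjusted p = 0.00389) and the KO response by -0.53 ± 0.18 (adjusted p = 0.157). Without WT PBS replicate 1 the KO value was -0.69 (adjusted p = 0.0353). For Thrsp it was -1.51 ± 0.35 in GS (adjusted p = 0.0191) and -1.16 ± 0.35 in KO (adjusted p = 0.0876). Thrsp depends on single arrays and on the probe set. Without WT PBS replicate 2 the value for GS was -1.19 (adjusted p = 0.0539), and the value for KO passed without WT PBS replicate 3 (-1.48, adjusted p = 0.0112), KO PBS replicate 1 (-1.39, adjusted p = 0.0354) or KO T3 replicate 1 (-1.39, adjusted p = 0.0339). The probe set 1444166_at gave -1.79 ± 0.33 for KO (adjusted p = 0.00373) and -1.89 ± 0.33 for GS (adjusted p = 0.002), and 1422973_a_at gave -1.71 ± 0.52 (adjusted p = 0.0961) and -2.23 ± 0.52 (adjusted p = 0.0211).

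For Fasn the 95% interval of the difference of responses ran from -2.09 to 0.09 in KO. In GS the difference was -1.60 with an interval from -2.69 to -0.51 (adjusted p = 0.127), and without WT PBS replicate 3 the GS value was -1.97 (adjusted p = 0.0418). For Me1 it was -0.46 in KO, with an interval from -1.11 to 0.19, and -0.66 in GS, with an interval from -1.30 to -0.01 (adjusted p = 0.362). GS minus KO and Y147F minus WT were called for 0 of the 10 and for 0 of all genes, with 5.72% and 5.35% of all genes at an unadjusted p under 0.05. For GS minus KO the largest difference relative to its error was that of Srebf1, -0.43 with an interval from -0.81 to -0.04 (adjusted p = 0.84). For Y147F minus WT the intervals ran from -0.22 to 0.47 for Agpat2, -0.30 to 0.41 for Mlxipl and -0.45 to 0.32 for Srebf1. They ran from -0.9995 to 0.4701 for Thrsp, -0.6025 to 0.6927 for Me1 and -1.0011 to 1.1810 for Fasn. The WT responses of Thrsp, Me1 and Fasn were 1.3643, 0.8923 and 1.0718. Each interval excludes a loss as large as the WT response of that gene, for Fasn only narrowly. Genotype and submission cannot be told apart in these comparisons.

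Levels after T3 were also compared. KO was below WT for 3 genes, where 3.55% of all genes were: Srebf1 by -0.76 ± 0.13, Agpat2 by -0.69 ± 0.12 and Mlxipl by -0.57 ± 0.12. GS was below WT for 4, where 2.58% of all genes were: Srebf1 by -0.93 ± 0.13, Agpat2 by -0.93 ± 0.12, Thrsp by -0.86 ± 0.25 and Mlxipl by -0.62 ± 0.12. The call for Mlxipl in KO is lost in a fit of only the arrays compared (adjusted p = 0.056). It is also lost with a covariate for high animal numbers in the titles (-0.37, adjusted p = 0.156). After T3 every KO array had a high number and every WT array a low one, so number and genotype coincide there. The slope of the covariate came only from groups with both kinds of number. This alternative therefore cannot separate genotype from animal number for Mlxipl, or for any other gene, between KO and WT after T3. Over all genes, 976 were called there, and 439 with the covariate. The call for Thrsp in GS (adjusted p = 0.0486) was lost in 10 of 17 alternatives, with adjusted p of 0.0908 to 0.134 when any 1 of the 6 arrays compared was left out. For Thrsp in KO the difference was -0.68 ± 0.25 (adjusted p = 0.114). It was called at -0.91 without KO T3 replicate 1 (adjusted p = 0.05 after rounding), at -0.97 with the mean of the 3 probe sets (adjusted p = 0.0144) and at -1.13 on 1444166_at (adjusted p = 0.00499). For Fasn the difference was -1.04 ± 0.37 in KO (adjusted p = 0.0975), -1.47 without KO T3 replicate 1 (adjusted p = 0.0218), and -1.15 ± 0.37 in GS (adjusted p = 0.0758).

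Among PBS livers, KO was not called against WT for any of the 10, where 6.88% of all genes were called. Y147F was not called against WT for any of the 10 with PBS, where 0.0847% of all genes were, or after T3, where 0.00706% were. Mlxipl was higher than in WT PBS without overlap in both KO and GS, as 12.5% and 10.4% of all genes were, by 0.23 ± 0.12 (adjusted p = 0.323) and 0.28 ± 0.12 (adjusted p = 0.276). For Thrsp the difference was 0.49 ± 0.25 in KO and 0.66 ± 0.25 in GS (adjusted p = 0.301 and 0.195), and without WT PBS replicate 3 the GS value was 0.97 (adjusted p = 0.0325). For Thrsp in GS the difference of responses thus combines a difference of 0.66 with PBS and of -0.86 after T3, while for Srebf1 the GS and WT levels with PBS lay 0.04 ± 0.13 apart.

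Within groups, 5 of the genes moved together from animal to animal. The deviations of Fasn, Acly, Acaca, Elovl6 and Me1 from their group means gave Pearson r of 0.85 to 0.94 in the 10 pairs over 24 arrays (23 with Elovl6), and 0.62 to 0.88 without the KO arrays. These 5 were picked after their values were seen, the arrays are the same in every pair, and the values carry no test. Thrsp went with Fasn at r = 0.89 and with Elovl6 at r = 0.87. Srebf1 gave r of -0.06 to 0.28 with the 5 genes. Mlxipl gave 0.28 to 0.36, and -0.28 to -0.15 without the KO arrays.

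The widest deviations were in KO and in WT PBS. KO T3 replicate 1 lay above its group mean by 0.85 for Fasn, 1.00 for Elovl6, 0.68 for Acly, 0.68 for Acaca and 0.40 for Me1. KO PBS replicate 1 lay at -0.74, -0.82, -0.58, -0.65 and -0.52 for the same genes. WT PBS replicates 2 and 3 lay at -0.85 and 0.74 for Fasn and at -0.65 and 0.64 for Thrsp. The within-group SD was 0.52 for Elovl6, 0.51 for Fasn, 0.38 for Acaca, 0.37 for Acly, 0.34 for Thrsp and 0.30 for Me1, in the 96.9th to 99.4th percentile of all genes tested, whose median was 0.12. It was 0.17 for Srebf1, 0.16 for Mlxipl and 0.15 for Agpat2, in the 72.5th to 82nd percentile.

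**Figure D4:**
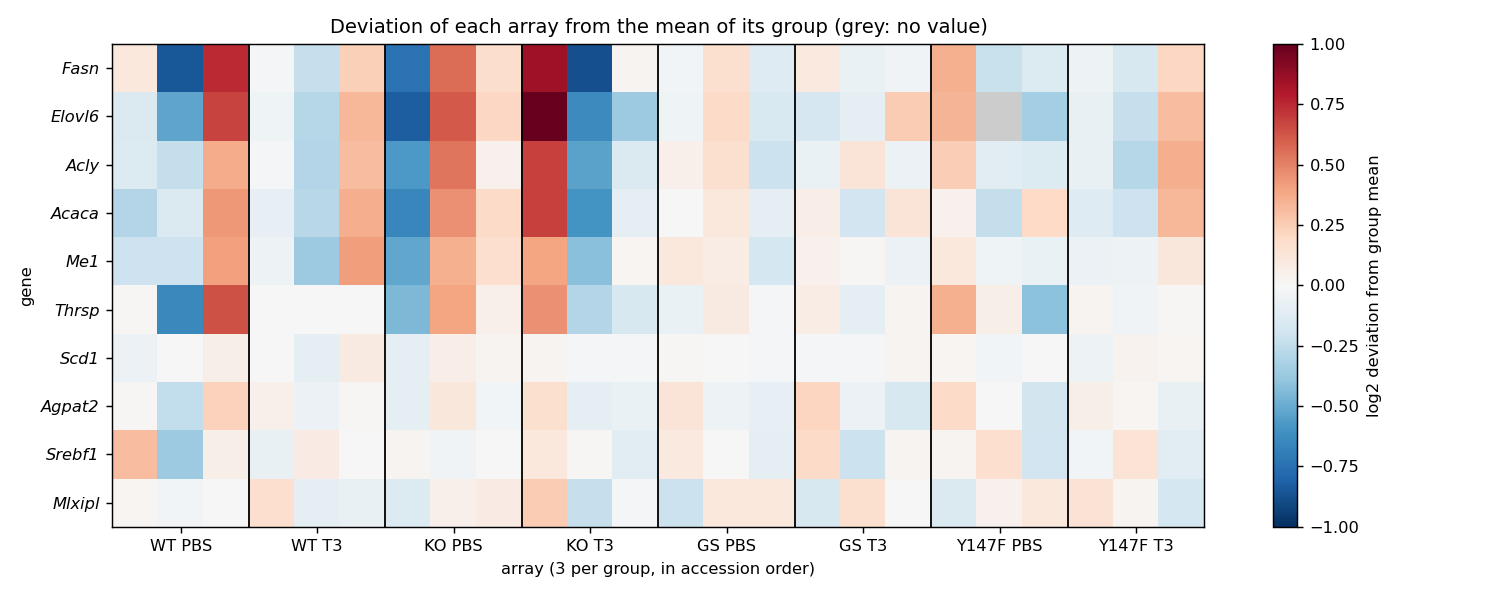
Log2 deviation of each array (columns, 3 per group) from its group mean for each gene (rows); red is above and blue below the mean, grey is the missing cell of Elovl6. The top 5 rows share their colours within most arrays, most strongly in the KO groups, where Elovl6 runs from -0.82 to 1.00.

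Around these genes, 6 lists of related genes with 71 members were read, 66 with a probe set and 65 tested. T3 raised 9 (13.8%) and lowered 4 (6.15%) of the 65 in WT, where 5.72% of all genes were called higher and 4.89% lower. It raised 7 (10.8%) and lowered 5 (7.69%) in Y147F, where 5.52% of all genes were called higher and 6.09% lower. The shares lowered are near those of all genes. It changed 0 in KO and 0 in GS, which is near the 0.177% and 0.148% of all genes called there. The median over the 65 was 0.02 in WT and 0.11 in Y147F, beside 0.78 in both for the 10 genes.

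Among 14 transcription factors and regulators tested, T3 raised Ppargc1b and Mlx and lowered Pparg in WT. Ppargc1b, a coactivator of SREBP-1, read 8.92, 9.06 and 8.87 with PBS and 9.92, 10.03 and 10.11 with T3, a rise of 1.07 (adjusted p = 9.41e-06). Mlx, the partner with which ChREBP binds DNA, rose by 0.51 in WT (adjusted p = 2.82e-04) and by 0.35 in Y147F (adjusted p = 0.00855). Pparg, whose product drives lipid storage genes, fell by 0.91 in WT (adjusted p = 9.09e-05), from 8.91, 8.81 and 9.25 to 8.23, 7.90 and 8.10. Against WT, the response of Ppargc1b differed by -0.81 in KO and -0.82 in GS (adjusted p of 0.0189 and 0.0185). That of Pparg differed by 0.93 and 1.04 (adjusted p of 0.00859 and 0.00312). For Mlx the difference was -0.47 in GS (adjusted p = 0.0359) and -0.43 in KO (adjusted p = 0.0569).

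Of 5 genes for malonyl-CoA and cofactors of fatty acid synthase, 2 rose in WT, Mid1ip1 by 0.77 (adjusted p = 0.0193) and Mlycd by 0.21 (adjusted p = 0.0468). On the WT arrays Mid1ip1 read 11.89, 10.83 and 11.80 with PBS and 12.42, 12.22 and 12.19 with T3. Part of its rise thus rests on PBS replicate 2, the lowest. Mid1ip1 is the paralog of Thrsp and helps acetyl-CoA carboxylase to polymerise, while Mlycd breaks malonyl-CoA down. Of 12 genes for citrate export, pyruvate supply and NADPH, Idh1, which like Me1 makes cytosolic NADPH, rose by 0.32 in WT (adjusted p = 0.00887). Of 12 elongases and desaturases, Elovl3 rose, by 1.10 in WT (adjusted p = 0.0221) and 1.78 in Y147F (adjusted p = 4.47e-04). Its difference was 0.12 in KO and 0.14 in GS, where the PBS level was already high. The mean of Elovl3 with PBS was 9.85 in WT, 8.92 in Y147F, 10.75 in KO and 10.62 in GS. After T3 it was 10.95 in WT, 10.69 in Y147F, 10.87 in KO and 10.76 in GS.

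Of 14 genes of glycerolipid assembly, the pathway of Agpat2, 1 rose and 3 fell in WT. Dgat2, which makes triglyceride from diacylglycerol, rose by 0.35 (adjusted p = 0.00234). Gpat4, which adds the first acyl chain, fell by 0.59 (adjusted p = 0.00137), Mogat2 fell by 0.57 (adjusted p = 0.0278), and the phosphatidate phosphatase Lpin2 fell by 0.30 (adjusted p = 0.0498). The response of Gpat3 was higher in KO than in WT by 1.59 (adjusted p = 0.0365), from -0.91 in WT (adjusted p = 0.0506) and 0.68 in KO (adjusted p = 0.429). The mean of Gpat3 was 8.49 with PBS and 7.58 with T3 in WT, and 7.33 and 8.01 in KO. Of 8 further genes known as targets of ChREBP, SREBP-1c or LXR, the sterol exporters Abcg8 and Abcg5 rose in WT, by 1.06 (adjusted p = 2.41e-04) and 0.75 (adjusted p = 0.00399). Abcg8 and Abcg5 gave 0.57 and 0.64 in KO and 0.60 and 0.56 in GS (adjusted p of 0.122 to 0.393), and their response differed from WT in neither (adjusted p of 0.434 to 0.927).

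Over the 24 arrays, the 3 genes with the pattern most like each member were found by Pearson r of log2 values. The groups and the T3 response are shared by all such pairs, so these are descriptions. Agpat2 was most like Trak1 and Frmd8 (both r = 0.96) and Pdhb (0.95). Mlxipl was most like Bcl3 and Snx10 (both 0.92) and Trak1 (0.91), and Thrsp was most like Tmem41b (0.91), Pdhb and Snx10 (both 0.90). Srebf1 was most like Dcaf4 (0.91), Tmtc4 and Stk4 (both 0.89), and Me1 was most like Pyurf (0.91), Tlcd2 (0.90) and Lactb2 (0.88). Fasn was most like Thrsp (0.88), Acaca and Acly were most like each other (0.86), Elovl6 was most like Acly (0.91 over 23 arrays), and Scd1 had no gene above 0.77 (Fcor).

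Array medians lay between 5.88 and 6.00. The Thrb probe set read 6.64, 7.01 and 6.75 in WT PBS and 7.25, 6.82 and 6.89 in KO PBS, a difference of 0.19 ± 0.17 (adjusted p = 0.613), so it does not show the knockout, and no source used here places its probes inside or outside the deleted part. Hepatocyte markers were high on every array (Alb 15.12 to 15.21). The mean of the 6 was 14.48 to 14.54 in KO PBS against 14.42 to 14.46 in KO T3, and 14.47 to 14.54 in GS PBS against 14.42 to 14.44 in GS T3. Among the 6, 1 was called in any of the 16 comparisons, Tat, a tyrosine-degrading enzyme, which was lower in GS than in WT after T3 by -0.53 ± 0.15 (adjusted p = 0.0425). Of the 8 adipocyte markers listed, 6 had a probe set with 1 symbol. Adipoq (4.04 to 4.45) and Lep (4.35 to 4.68) were below the 40th percentile of the array, 5.32 to 5.45, on all 24. Car3 (14.39 to 14.67), Fabp4 (8.36 to 9.29) and Retn (6.83 to 7.38) reached it on all 24, and Cidec (5.11 to 7.18) on 23. The mean of the 8 sinusoidal endothelial markers was 9.58 to 9.64 in WT PBS and 9.27 to 9.37 in WT T3, and averaged 9.54 and 9.33 in GS PBS and GS T3, again without overlap. The mean of the 8 stellate cell markers had the largest shift of any marker list with T3, in KO, from 9.36 to 9.60 with PBS to between 8.50 and 9.28 with T3, without overlap. The median over the 8 was -0.55, with 4 at an unadjusted p under 0.05 and 0 called by limma, and it was -0.08 in WT, 0.00 in GS and -0.11 in Y147F. The mean of 5 cholangiocyte markers was 6.04 to 6.22 in WT PBS and 5.92 to 6.00 in WT T3. The mean of the 6 adipocyte markers with a probe set was 7.52 to 7.62 in Y147F PBS and 7.65 to 7.73 in Y147F T3. The mean of 10 Kupffer cell or macrophage markers reached 9.89 in GS T3 and 9.91 in Y147F PBS, against 8.84 to 9.23 in WT, and 1 of the 10, Clec4f, was called higher than in WT in KO with PBS by 0.59 ± 0.18 and in GS after T3 by 0.61 ± 0.18 (adjusted p of 0.05 and 0.0499, both just under the threshold). In whole liver, fewer cells of a type and less RNA per cell cannot be told apart, and the part of these markers in the responses of the 10 genes was not tested.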

How the data were processed

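Total RNA of 24 livers was measured on Affymetrix arrays. Per the submitters' processing notes the authors ran RMA; the deposited values lie on the log2 scale of intensity. Neither an RMA version nor a genome build is given in the sources used here. For the 6 Y147F columns the decimal mark was lost. It was put back where a value from 3 to 16 resulted, and 879 cells (0.325% of those columns) that could also be spreadsheet day numbers were set missing. When the same loss was imposed on the other 18 columns, the rule restored 810615 cells, 0 of them wrong, and set the remaining cells missing. This is a check of the code and not of the lost marks.

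Of 45101 probe sets, 34958 had 1 gene symbol, 932 several and 9211 none. Probe sets with 1 symbol covered 18194 genes, and the brightest over all arrays stood for a gene. To be tested it had to reach the 40th percentile of its array 3 times or more. This left 14160 genes, all 10 members and 19 of their 22 probe sets; the 3 left out are of Acly. In R 4.3.3 with limma 3.58.1, 1 model of 8 group means was fitted to all 24 arrays (16 residual and 4.26 prior degrees of freedom), with two-sided tests and Benjamini-Hochberg adjustment over the genes of each of 16 contrasts. A value per probe set comes from the same model over 24576 probe sets. The 95% intervals are not adjusted. Groups were taken from the sample titles. The p-values rest on the spread between animals within groups, pooled over the 8 groups of 3 and moderated across genes. The steps were tested on simulated data. The number of arrays limits the precision.

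The genes named are the 10 members, the receptor genes, and up to 4 members of each list with the smallest p among those called in WT or in a difference of responses, and Mogat2 was added to complete a count, after its value was seen. Members and lists were chosen with earlier results of these data known. Alternatives were quantile normalisation, no filter or one at the 60th percentile, averaging the probe sets of a gene, each probe set by itself, a variance trend with robust moderation, array weights, a title-number covariate, only the arrays compared, only the 18 first-submitted arrays, leaving out each array and, chosen after seeing the data, reading the day-number cells as decimals.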

Additional observations from a re-analysis of the deposited data

Results flagged for a closer look

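The T3 response differed between genotypes by the test of the difference itself for 6 results. In KO against WT the response of Agpat2 differed by -0.93 and that of Mlxipl by -0.80 on the log2 scale. In GS against WT the response of Thrsp differed by -1.51, that of Agpat2 by -1.18, that of Srebf1 by -0.96 and that of Mlxipl by -0.90. The same 6 WT arrays stand in all 6 results.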

How the results depend on the processing

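No result changed sign while called under any alternative. The count of the 10 genes called between GS and WT with PBS, 1, became 0 with the title-number covariate, with averaged probe sets, without the filter, with only the 18 first-submitted arrays, with only the arrays compared and with a variance trend and robust moderation, and it ran from 0 to 2 when 1 array was left out. Leaving out 1 array, the count ran from 0 to 1 for KO against WT with PBS (0 with all arrays) and from 3 to 5 for KO against WT after T3 (3 with all arrays). For the T3 response it ran from 4 to 6 in WT (5) and from 5 to 6 in Y147F (6) and stayed 0 in KO and GS, and for the differences of responses from 2 to 3 for KO (2) and from 3 to 5 for GS (4). With the day-number cells read as decimals, the count for the T3 response in Y147F was 5.

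Counts over all genes moved more. For T3 they ran from 1073 to 1870 in WT, from 855 to 2199 in Y147F, from 6 to 32 in KO and from 2 to 33 in GS, with the lowest value in Y147F, KO and GS from only the arrays compared. The cause was not tested. Among calls of single genes that appeared, array weights gave Fasn in WT with T3 (1.13, adjusted p = 0.0414), Fasn in KO against WT after T3 (-1.17, adjusted p = 0.0429) and the Srebf1 response of KO against WT (-0.62, adjusted p = 0.0498). Averaged probe sets gave the Thrsp response of KO against WT (-1.55, adjusted p = 0.0103), and only the arrays compared gave Fasn in GS against WT after T3 (-1.15, adjusted p = 0.00258). Other calls that ended or appeared are given or counted beside their values. No paired analysis was possible because the titles give animal numbers and no replicate numbers shared between groups. The highest signals, those of Scd1 and of Thrsp with T3, lie near the top of the array range.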
